A study of Mus musculus with 18 samples.

Results

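The Notch pathway was followed through mouse lung organoids and tumor organoids in 10 genes, the receptors Notch1, Notch2 and Notch3, the ligands Jag1, Jag2, Dll1 and Dll4, and the target genes Hes1, Hey1 and Nrarp. They were taken by name as the pathway's receptors, ligands and targets, and all 10 were found by symbol among the 46603 genes of each of the 18 expression tables. All 10 passed the filter on low counts in every comparison described here. Notch receptors are membrane proteins that are cleaved when they meet a Jagged or Delta-like ligand on a neighboring cell. The freed intracellular domain joins the DNA-binding protein RBPJ and turns on genes such as Hes1, Hey1 and Nrarp. In the airways, Notch activity holds cells on the secretory (club cell) path and away from the ciliated one, and basal stem cells carry the ligands and receptors that pattern their own progeny.

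The mice carried human EGFR with the T790M and L858R mutations at 1 Col1a1 locus, silent behind a lox-stop-lox cassette and driven by the ubiquitous CAG promoter once Cre had removed the stop. Tracheal cells were sorted as NGFR negative (club) or NGFR positive (basal), and distal lung cells as Sca1 negative (AT2, alveolar type 2) or Sca1 positive (BASC, bronchioalveolar stem cells). Each sort was infected in culture with Ad-GFP, which leaves EGFR silent, or with Ad-Cre, and was grown in Matrigel with neonatal lung mesenchymal support cells, whose RNA can be in any culture. The 10 pretransplant organoid cultures were club, basal, AT2 and mixed BASC with each virus, plus an alveolar and a bronchiolar BASC culture with Ad-Cre that had been picked by their shape. Each of these conditions was 1 library, so the Ad-GFP and Ad-Cre cultures of a population, which were aliquots of the same sort given different viruses, served as its replicates. The 2 AT2 cultures are thus not independent sorts. P-values between club and basal cultures measure the spread between aliquots. Those between tracheal, BASC and AT2 organoids, fitted together, also take in differences between the populations pooled in a group. Ad-Cre organoids were also placed in the lungs of Foxn1 Nu/Nu nude mice, which lack T cells, and the resulting tumors were grown again as tumoroids: 3 from AT2 cells, 3 from mixed BASCs and 1 from bronchiolar BASCs. An eighth tumoroid came from an autochthonous tumor, induced by Ad-Cre in the lung of a transgenic mouse. The autochthonous tumors were induced in adult mice, no other age was given in the sources used here, and these do not say whether tumoroids shared a mouse.

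The labels were checked against marker genes. Summed AT2 markers, among them the surfactant gene Sftpc, lay at 42953 and 50396 CPM (counts scaled to library size) in the AT2 organoid cultures and at 156 to 244 CPM in the 4 tracheal ones. The basal markers Krt5, Krt14, Trp63 and Ngfr summed to 3853 to 3941 CPM in the club cultures and to 3112 to 3594 CPM in the basal cultures, so these markers did not set the NGFR-sorted cultures apart in the direction of the sort. The mixed and bronchiolar BASC organoids carried basal markers at 1018 to 2646 CPM, and the alveolar BASC culture at 163 CPM. The 8 endothelial markers summed to 1.91 to 2.65 CPM in trachea and 2.91 to 7.51 CPM in the mixed and bronchiolar BASC organoids, against 108 and 156 CPM in AT2 organoids and 126 CPM in the alveolar BASC culture. They summed to 10.5 CPM in the bronchiolar tumoroid and 37.9 to 183 CPM in the AT2 and mixed BASC ones. Within this list Esam ran from 0.277 to 178 CPM over the cultures, while Pecam1 reached 7.995 CPM and Cdh5, Emcn and Cldn5 at most 0.176 CPM. The part of these markers in the differences below was not tested. The tumoroid labelled AT2 tumoroid 3 stood apart, with fibroblast markers summing to 10248 CPM against 538 to 4514 CPM in the other AT2 and mixed BASC tumoroids, and epithelial markers at 747 CPM against 2229 to 4108 CPM. Total expected counts ran from 27772660 to 97191624 in organoids and from 15327265 to 23355938 in tumoroids. In RNA from whole cultures, fewer cells of a type and less RNA per cell cannot be told apart.

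All 10 members are protein-coding genes of the GRCm38 assembly. The receptors lie at chr2:26457903-26516663 (Notch1), chr3:98013527-98150361 (Notch2) and chr17:32120820-32166852 (Notch3). The ligands lie at chr2:137081456-137116644 (Jag1), chr12:112907819-112929776 (Jag2), chr17:15367354-15376872 (Dll1) and chr2:119325784-119335962 (Dll4), and the targets at chr16:30064384-30067796 (Hes1), chr3:8663359-8667256 (Hey1) and chr2:25180758-25183339 (Nrarp). RefSeq promoter windows (GRCm38.p6) were matched for 8 of the 10, all but Hes1 and Hey1, and the 250 bases before the annotated start were searched on both strands for 3 short motifs. GTGGGAA is the core bound by RBPJ, while CACGTG and CACGCG are sites of the kind that HES and HEY repressors bind. Of the 32851 windows of this table, 5.42% held GTGGGAA, 6.02% held CACGTG and 7.62% held CACGCG. Among the 9 member windows (Dll1 has a pair), GTGGGAA was in none, CACGTG was in that of Nrarp, and CACGCG was in those of Jag1, Dll4, Notch2 and 1 of Dll1. The windows of Nrarp and Jag1, a target and a ligand that were higher in trachea than in AT2 organoids (below), are printed on the gene's own strand with these motifs in capitals (CGCGTG is CACGCG read on the other strand), cut off where a GENCODE transcript begins. The window of Lfng, which codes for the sugar transferase Lunatic fringe that modifies Notch receptors and which was also higher in the airway-type cultures, is shown beside them, because its GTGGGAA overlaps a CACGTG by 3 bases.
Nrarp, chr2:25180508-25180757, plus strand: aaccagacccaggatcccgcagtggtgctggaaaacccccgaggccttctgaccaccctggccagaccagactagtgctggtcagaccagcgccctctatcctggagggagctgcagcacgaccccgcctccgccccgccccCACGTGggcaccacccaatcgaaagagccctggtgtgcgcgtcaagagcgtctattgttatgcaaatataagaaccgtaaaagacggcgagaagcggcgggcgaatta
Jag1, chr2:137116645-137116770, minus strand: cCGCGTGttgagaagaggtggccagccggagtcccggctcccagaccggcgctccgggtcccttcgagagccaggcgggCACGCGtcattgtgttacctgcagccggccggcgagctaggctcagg
Lfng, chr5:140607091-140607319, plus strand: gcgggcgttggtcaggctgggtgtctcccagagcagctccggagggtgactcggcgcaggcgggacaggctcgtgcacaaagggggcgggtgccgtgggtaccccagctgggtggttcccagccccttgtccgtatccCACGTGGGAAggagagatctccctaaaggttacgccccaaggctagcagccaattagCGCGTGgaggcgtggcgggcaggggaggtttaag
The CACGTG of Nrarp began 108 bases before its start, and the CACGCG matches of Jag1 began 249 and 171 bases before its start. A match describes these letters only, and no binding was measured.

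**Figure D1:**
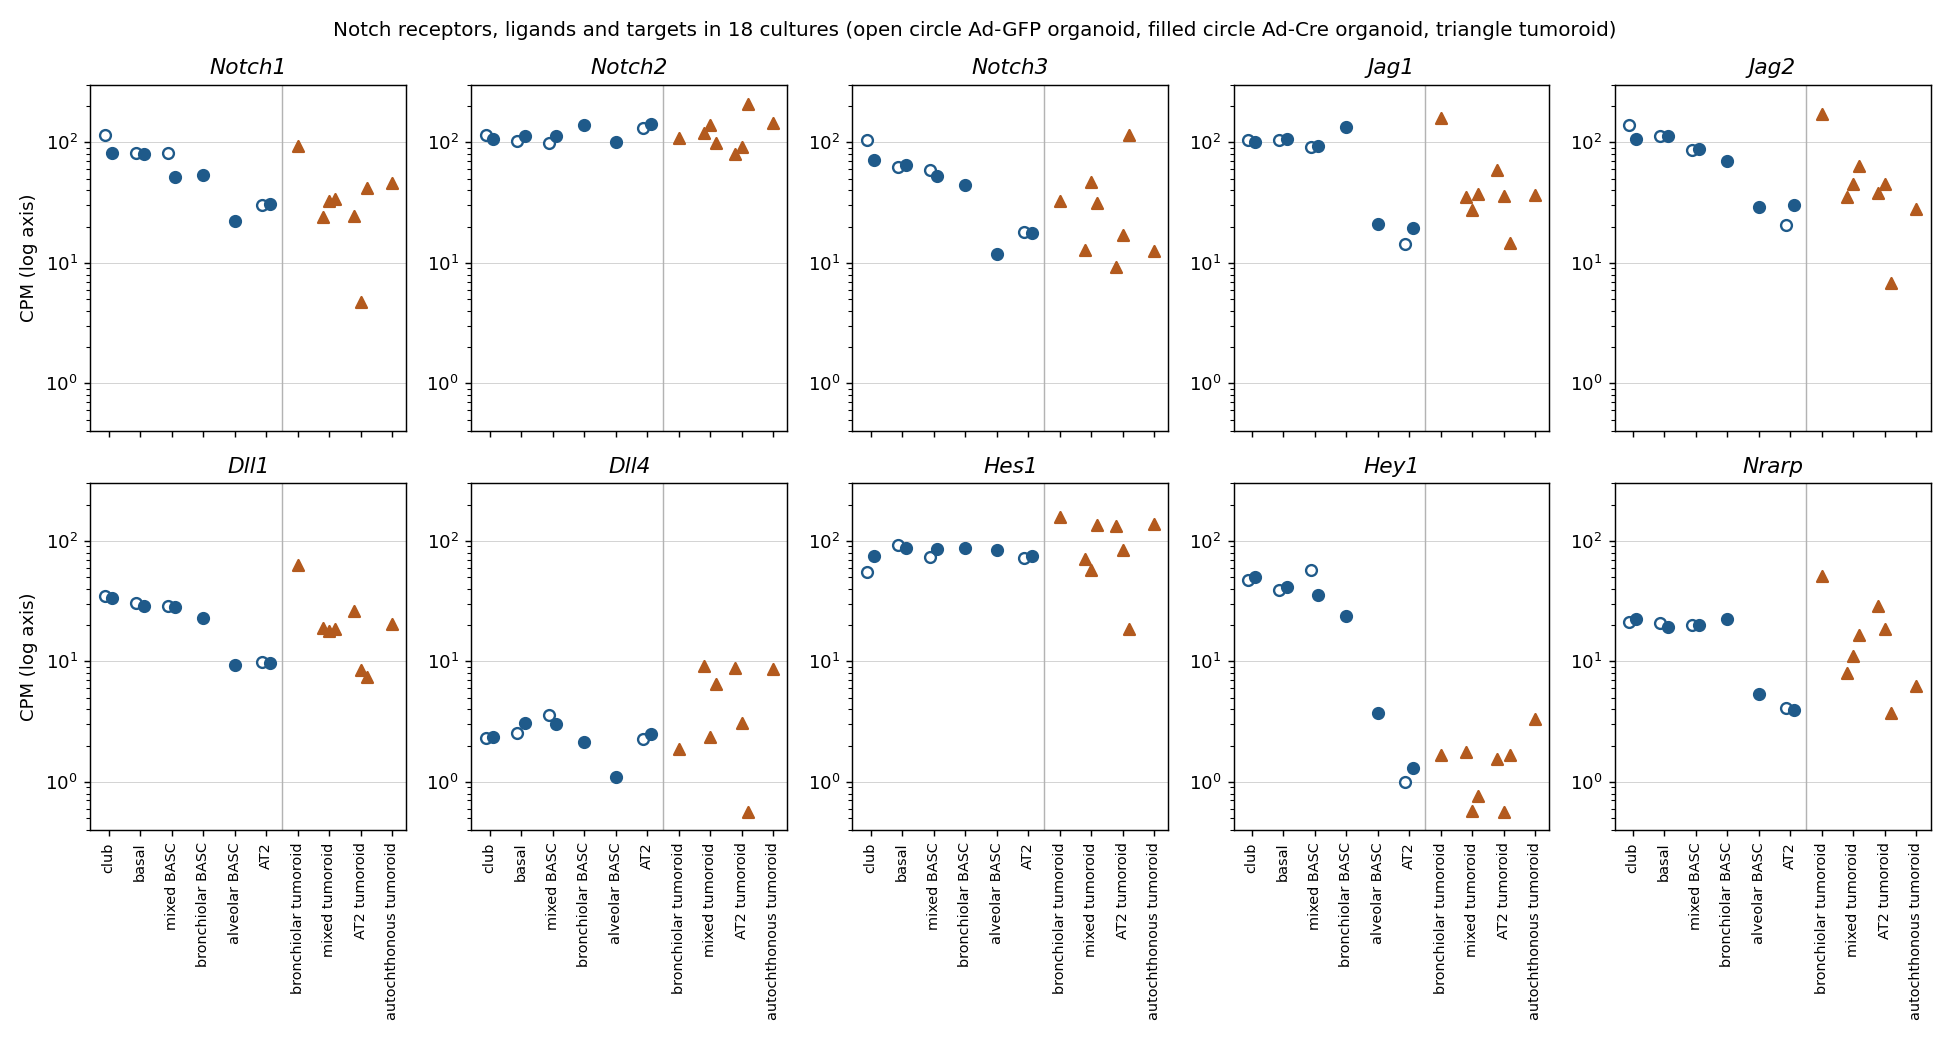
Level of each gene in CPM (log axis) in the 18 cultures, by cell of origin, with organoids left of the gray line and tumoroids right of it; each point is 1 library, and no error is drawn. Notch2 and Hes1 stay within narrow ranges in the organoids (98.4 to 142 CPM and 55.2 to 92.1 CPM), whereas Hey1 falls from 23.6 to 56.9 CPM in the airway-type organoids to at most 3.73 CPM in the alveolar ones.

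The first question was whether organoids of tracheal origin differ from AT2 organoids in this pathway. Of the 10 members, 7 were higher and 1 was lower in trachea (edgeR quasi-likelihood test, Benjamini-Hochberg adjusted p below 0.05). Among all 19349 genes tested, 44.8% passed the same test (21.6% higher in trachea and 23.2% lower). The median log2 fold change was 1.87 over the members and 0.07 over all genes tested. Jag1, Jag2, Notch3, Hey1 and Nrarp differed most, Notch1 and Dll1 less, and Notch2 went the other way. Those 8 members were also the ones whose 4 tracheal values did not overlap the AT2 values, as held for 39.1% of all genes on the higher side and 33.8% on the lower side.

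Among the receptors, Notch1, which basal cells of the airway are known to carry, read 116 CPM in club Ad-GFP, 81.2 CPM in club Ad-Cre, 81.6 CPM in basal Ad-GFP and 80.8 CPM in basal Ad-Cre, against 30.1 and 30.7 CPM in the Ad-GFP and Ad-Cre AT2 cultures. All 4 tracheal cultures lay above both AT2 cultures, and the log2 fold change was 1.53 (SE 0.43, adjusted p = 0.0207). Notch3 read 105, 71.3, 62.7 and 64.7 CPM in the same tracheal cultures and 17.9 and 17.6 CPM in AT2. Its groups were also apart (log2 fold change 2.06, SE 0.56, adjusted p = 0.0187). Notch2 was the exception. It read 115, 106, 102 and 114 CPM in trachea and 133 and 142 CPM in AT2, which left it lower in trachea by a small margin (log2 fold change -0.36, SE 0.13, adjusted p = 0.0473). That call was lost in 9 of 12 alternative settings, with adjusted p up to 0.273.

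Jag1, a ligand with a large extracellular domain, read 106, 100.1, 105 and 106 CPM in the 4 tracheal cultures and 14.3 and 19.6 CPM in AT2. The tracheal values were nearly level, and the difference was 6.02-fold (log2 2.59, SE 0.59, adjusted p = 0.0120). Its relative Jag2 read 138, 106, 113 and 112 CPM against 20.5 and 30.2 CPM (log2 fold change 2.18, SE 0.41, adjusted p = 0.00851). Dll1, a Delta-like ligand, read 28.9 to 35.2 CPM in trachea and 9.67 and 9.84 CPM in AT2 (log2 fold change 1.68, SE 0.39, adjusted p = 0.0123). Dll4, best known from blood vessels, was low throughout, at 2.29 to 3.11 CPM in trachea and 2.25 and 2.47 CPM in AT2, and its groups overlapped (adjusted p = 0.858). So 3 of the 4 ligands were higher in trachea.

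The 3 targets did not move alike. Hes1, a repressor that many signals besides Notch can switch on, read 55.2, 74.4, 92.1 and 86.9 CPM in trachea and 72.2 and 74.8 CPM in AT2. Its tracheal values fell on both sides of the AT2 values (log2 fold change 0.04, SE 0.18, adjusted p = 0.877). Hey1, a related repressor, read 47.3, 50.6, 39.2 and 41.3 CPM in trachea and 1.01 and 1.31 CPM in AT2. It showed the largest difference of the members, 37.6-fold (log2 5.23, SE 0.98, adjusted p = 0.00843). Nrarp, which codes for a small ankyrin-repeat protein that binds the Notch complex and dampens it, read 21.2, 22.5, 20.9 and 19.4 CPM in trachea and 4.12 and 3.96 CPM in AT2 (log2 fold change 2.34, SE 0.49, adjusted p = 0.00994).

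These calls rested on the AT2 pair. Without the Ad-GFP AT2 culture 0 of the 10 members and 0 genes in all passed edgeR's test, although 7581 still had an unadjusted p below 0.05, and without the Ad-Cre one only Jag2 did, among 2069 genes. The direction of the 8 called members was kept in every setting tried. Support-cell RNA differed along with the origin: the summed fibroblast markers were 2052 to 2199 CPM in trachea and 7401 to 7606 CPM in AT2 (6 of 6 tested lower in trachea), and the summed epithelial markers were 3287 to 3646 CPM in trachea and 1414 to 1660.3 CPM in AT2. Their part in the members' differences was not tested.

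**Figure D2:**
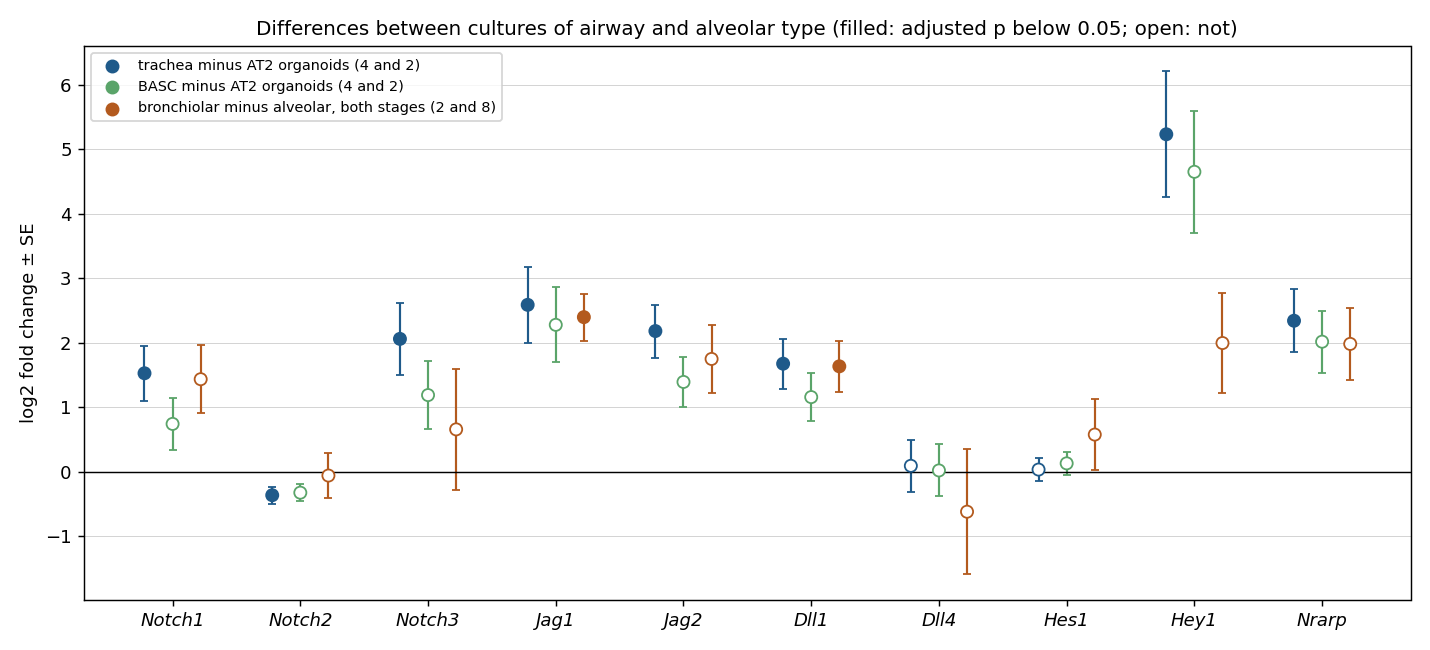
Log2 fold change with its standard error for each member in 3 comparisons (edgeR), by gene; filled points passed an adjusted p of 0.05 and open points did not. Jag1 is at 2.59, 2.28 and 2.40 in the 3 comparisons, Hes1 stays between 0.04 and 0.58, and Hey1 reaches 5.23 in trachea against AT2. The comparisons share cultures and are not independent. Trachea and BASC organoids are set against the same AT2 organoids. The bronchiolar against alveolar comparison reuses Ad-Cre organoids of AT2 and BASC.

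Of the 47 other pathway genes listed, 43 were tested in trachea against AT2, and 11 were higher and 11 lower, with a median log2 fold change of 0.01. These shares were near those of all genes, 21.6% higher and 23.2% lower. The glycosyltransferase gene Lfng read 15.5 to 16.1 CPM in trachea and 0.768 to 1.01 CPM in AT2 (log2 fold change 4.11, adjusted p = 0.00978). Dtx1, for a Deltex ubiquitin ligase, read 8.34 to 9.29 CPM against 0.140 to 0.182 CPM (log2 fold change 5.72, adjusted p = 0.0110). Mfng, the Manic fringe gene, had 8 to 10 counts in the tracheal cultures and 0 in both AT2 cultures, so it was at least 5.46-fold higher when AT2 is set to a floor of 3 counts per library. On the other side, Dlk1, which codes for a Delta-like protein without the usual receptor-binding domain and is a marker of immature mesenchyme, read 184 to 288 CPM in AT2 and 2.80 to 3.65 CPM in trachea (log2 fold change -6.22, adjusted p = 0.0200). Psen2 and Aph1c, for subunits of the gamma-secretase that cleaves Notch, were lower in trachea by log2 fold changes of -1.15 (adjusted p = 0.00850) and -0.95 (adjusted p = 0.0323). The call of Dlk1 was lost in 5 of 12 alternative settings and that of Aph1c in 6 of 12. Of the 10 protease genes 3 were higher and 3 lower, and of the 9 nuclear complex genes 2 were higher and 3 lower.

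The BASC organoids differed among themselves. For Jag1 and Nrarp the mixed and bronchiolar cultures lay near trachea, and the alveolar culture lay near AT2. Jag1 read 92.3 CPM in mixed Ad-GFP, 92.8 CPM in mixed Ad-Cre, 134 CPM in bronchiolar and 21.1 CPM in alveolar BASC organoids. Nrarp read 19.9, 20.0, 22.3 and 5.35 CPM in the same order. Hey1 read 56.9, 35.7, 23.6 and 3.73 CPM, so that the alveolar culture stood below the other BASC cultures but above both AT2 cultures. Notch3 at 58.8, 52.5, 44.3 and 11.8 CPM and Dll1 at 28.9, 28.5, 22.9 and 9.36 CPM were also lowest in the alveolar culture. There they lay below both AT2 cultures (17.9 and 17.6 CPM for Notch3, 9.84 and 9.67 CPM for Dll1).

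Taking the 4 BASC cultures as 1 group against AT2, no member passed (0% of 19349 genes were called by edgeR, 6545 with an unadjusted p below 0.05). The log2 fold changes were 4.65 for Hey1 (SE 0.95, adjusted p = 0.0606), 2.28 for Jag1 (SE 0.58, adjusted p = 0.0642) and 2.02 for Nrarp (SE 0.48, adjusted p = 0.0616). For these 3 genes every BASC culture lay above both AT2 cultures, as 19.2% of all genes did. Jag2 at 1.39 (adjusted p = 0.0711) and Dll1 at 1.16 (adjusted p = 0.0846) overlapped through the alveolar culture. With that culture left out, 9265 of 19516 genes were called, 4770 of them higher in BASC. Among them were 7 members: Notch1, Notch3, Jag1, Jag2, Dll1, Hey1 and Nrarp.

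Between trachea and BASC, 0 members and 0.0103% of the genes tested (2 genes) passed. The largest differences were 0.87 for Notch3 (SE 0.41, adjusted p = 0.287), 0.79 for Jag2 (SE 0.30, adjusted p = 0.213) and 0.79 for Notch1 (SE 0.32, adjusted p = 0.237), all toward trachea. Only without the mixed Ad-GFP BASC culture did a member pass, Notch1 (adjusted p = 0.0366), where 3541 of 19105 genes were called. Jag1 differed by 0.31 (SE 0.42), with BASC cultures on both sides of the tracheal range of 100.1 to 106 CPM.

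The alveolar and bronchiolar BASC cultures, picked from the same Sca1-sorted cells by shape, were 1 library each and were compared by fold only. Jag1 was 6.32-fold higher in the bronchiolar culture, Hey1 6.25-fold, Nrarp 4.14-fold, Notch3 3.76-fold, Dll1 2.44-fold, Notch1 2.43-fold and Jag2 2.39-fold. So 7 of the 10 members were more than 2-fold higher, against 11.7% of the 14354 genes with a mean of at least 1 CPM. Dll4 (1.88-fold), Notch2 (1.37-fold) and Hes1 (1.06-fold) stayed within 2-fold. Both cultures also differed in basal markers, at 1018 and 163 CPM, and in AT2 markers, at 2375 and 46222 CPM.

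Between the club and basal tracheal cultures, the members' log2 fold changes lay between -0.46 for Hes1 and 0.48 for Notch3. No member passed the test of 2 cultures against 2 (0.232% of 17234 genes did). Hes1, Hey1, Notch3 and Dll1 had an unadjusted p below 0.05 in edgeR, as did 8.14% of all genes. Hes1 had the lowest p, with 55.2 and 74.4 CPM in club and 92.1 and 86.9 CPM in basal cultures (log2 fold change -0.46, SE 0.13, adjusted p = 0.315). Notch3 leaned toward club, at 105 and 71.3 CPM against 62.7 and 64.7 CPM (log2 fold change 0.48, SE 0.18, adjusted p = 0.553). Without a filter on low counts, 650 genes in place of 40 were called, among them Notch3 and Hes1. Leaving out the club Ad-Cre culture left only club Ad-GFP on that side. That library had the highest Notch1 (116 CPM) and Notch3 (105 CPM) and the lowest Hes1 (55.2 CPM) of the tracheal cultures.

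The second question was whether turning on mutant EGFR with Ad-Cre moved the pathway. In the 4 matched pairs (club, basal, AT2 and mixed BASC), 0 of 10 members passed, as did 0% of 19178 genes (387 had an unadjusted p below 0.05 in edgeR, and DESeq2 called 5). The members' log2 fold changes ran from -0.30 for Notch1 (SE 0.14) to 0.14 for Hes1 (SE 0.10), all with an adjusted p of 0.996. Only Dll1 kept 1 direction in all 4 pairs, with differences of -0.08 to -0.02 on the log2 scale. Fitting the cultures without the replicate block of the pairs also called 0 genes.

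**Figure D3:**
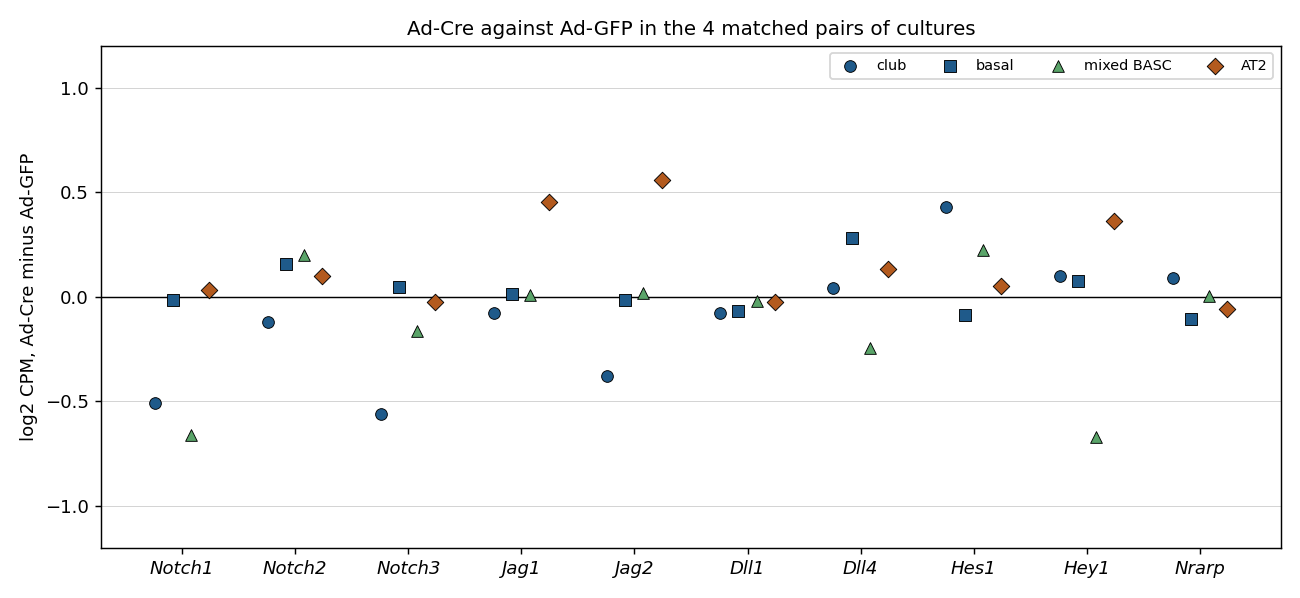
Difference in log2 CPM, Ad-Cre minus Ad-GFP, for each member in the 4 matched pairs; each point is 1 pair of libraries. No gene leaves the range of -0.67 to 0.56, and the widest spreads belong to Hey1, Jag2 and Notch1.

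Single pairs differed by up to 0.67 on the log2 scale. Hey1 read 56.9 CPM with Ad-GFP and 35.7 CPM with Ad-Cre in mixed BASCs, while it read 1.01 and 1.31 CPM in AT2. Notch1 read 81.9 and 51.8 CPM in mixed BASCs and 116 and 81.2 CPM in club cultures, but 81.6 and 80.8 CPM in basal and 30.1 and 30.7 CPM in AT2 cultures. Jag2 read 138 and 106 CPM in club and 20.5 and 30.2 CPM in AT2 cultures. The test of whether the Ad-Cre effect differed between distal lung and trachea called 0 members and 0% of genes in edgeR (891 with an unadjusted p below 0.05, and 137 called by DESeq2). Its estimate for Jag2 was 0.48 (SE 0.25, adjusted p = 1.00).

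The third question was how bronchiolar and alveolar tumoroids differ. The single bronchiolar tumoroid had the highest Jag1, Jag2, Dll1, Notch1, Nrarp and Hes1 of the 7 transplant tumoroids. Jag1 read 161 CPM in it, against 59.1, 35.7 and 14.6 CPM in AT2 tumoroids 1 to 3 and 35.3, 27.6 and 37.3 CPM in mixed BASC tumoroids 1 to 3. Jag2 read 174 CPM against 6.84 CPM in AT2 tumoroid 3 and 35.3 to 63.5 CPM in the other 5. Dll1 read 62.7 CPM against 7.40 to 26.0 CPM (median 18.4 CPM).

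Its Nrarp stood at 51.1 CPM against 3.73 to 28.8 CPM (median 13.8 CPM), its Notch1 at 92.6 CPM against 4.77 to 41.8 CPM (median 28.8 CPM), and its Hes1 at 158 CPM against 18.5 to 135 CPM (median 78.1 CPM). Hey1 did not share this. It read 1.65 CPM in the bronchiolar tumoroid (37 counts) and 0.567 to 1.76 CPM in the others, low in both. So 6 of the 10 members were above the range of the other tumoroids, as 21.3% of the 17678 genes tested were.

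None of these differences passed when the lone bronchiolar tumoroid was assumed to vary like the other groups (0.667% of genes did, 118 in all). The log2 fold changes were 2.18 for Jag1 (SE 0.54, adjusted p = 0.218), 2.17 for Jag2 (SE 0.73, adjusted p = 0.376), 1.94 for Dll1 (SE 0.57, adjusted p = 0.294), 1.82 for Nrarp (SE 0.80, adjusted p = 0.540), 1.77 for Notch1 (SE 0.79, adjusted p = 0.547) and 0.90 for Hes1 (SE 0.85, adjusted p = 0.826). The calls rested on single tumoroids. Without AT2 tumoroid 3 378 genes were called, Jag1 (adjusted p = 0.0326) and Jag2 (adjusted p = 0.0403) among them. In edgeR, 2 genes were called without AT2 tumoroid 1, 24 without AT2 tumoroid 2, 18 without mixed BASC tumoroid 2 and 0 without mixed BASC tumoroid 1 or 3 (1435 and 1421 with an unadjusted p below 0.05), with no member among them. DESeq2 on all 7 called 697 genes and Jag1.

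Among the alveolar tumoroids the members varied widely. AT2 tumoroid 3 had the highest Notch3 at 115 CPM (the other AT2 and mixed ones at 9.20 to 46.5 CPM) and the lowest Hes1 at 18.5 CPM, Jag2 at 6.84 CPM, Dll4 at 0.559 CPM, Jag1 at 14.6 CPM and Nrarp at 3.73 CPM. Its marker sums were those given above, and their part in these levels was not tested. Between AT2 and mixed BASC tumoroids, 3 against 3, 0 members and 0% of genes passed edgeR's test (195 genes had an unadjusted p below 0.05, and DESeq2 called 12). The members' log2 fold changes lay between -0.66 for Jag2 (SE 0.65) and 0.65 for Notch3 (SE 0.98). The autochthonous tumoroid read 36.4 CPM for Jag1, 28.1 CPM for Jag2, 6.30 CPM for Nrarp, 3.35 CPM for Hey1 and 137 CPM for Hes1, so it lay on the alveolar side for the ligands and Nrarp.

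When organoids and tumoroids were fitted in 1 model with stage as a term, Jag1 and Dll1 were higher in the bronchiolar cultures (1 organoid and 1 tumoroid) than in the 8 alveolar-type ones (the AT2 and alveolar BASC organoids with Ad-Cre, and the AT2 and mixed BASC tumoroids). In this fit 6.91% of 17314 genes passed, 4.27% being higher. The bronchiolar tumoroid came from transplanted bronchiolar BASC organoids, and the AT2 tumoroids from AT2 organoids with Ad-Cre. The fit treated related cultures as independent, so the bronchiolar organoid and tumoroid may stand for 1 origin. The mixed BASC organoid with Ad-Cre was left out. It read 92.8 CPM for Jag1 and 28.5 CPM for Dll1, above the alveolar-type ranges that follow. Jag1 was 5.27-fold higher (log2 2.40, SE 0.36, adjusted p = 0.00653), with 134 and 161 CPM in the bronchiolar cultures and 14.6 to 59.1 CPM in the others. Dll1 was 3.11-fold higher (log2 1.64, SE 0.39, adjusted p = 0.0387), although the bronchiolar organoid at 22.9 CPM lay within the range of the others, 7.40 to 26.0 CPM. The call of Dll1 was lost in 8 of 14 alternative settings (adjusted p up to 0.461), among them leaving out any 1 of the mixed BASC tumoroids, the AT2 organoid or the alveolar BASC organoid. Nrarp (log2 fold change 1.98, adjusted p = 0.0653), Jag2 (1.75, adjusted p = 0.0802), Notch1 (1.44, adjusted p = 0.147) and Hey1 (3.99-fold, adjusted p = 0.169) did not pass. With AT2 tumoroid 3 left out, Jag2 and Nrarp passed too, and 1831 genes were called in place of 1196. With either bronchiolar culture left out, no member passed. The basal markers (4 of 4 higher) and the AT2 markers (4 of 6 lower) moved along.

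Of the 42 other pathway genes tested in this fit, 3 were higher and 1 lower (4.27% and 2.63% among all genes), with a median log2 fold change of -0.04. Lfng was higher, at 9.46 and 17.6 CPM against 1.01 to 6.81 CPM (log2 fold change 2.27, SE 0.35, adjusted p = 0.00653). So was Maml2, for a coactivator of the nuclear Notch complex (log2 fold change 1.18, adjusted p = 0.0178). Heyl, a HEY relative, passed with 50 counts in the bronchiolar organoid and 12 in the bronchiolar tumoroid against at most 5 in any alveolar-type culture (adjusted p = 0.0215). Rfng, the Radical fringe gene, was lower (log2 fold change -0.95, adjusted p = 0.0178). Of 14 alternative settings, the call was lost in 2 for Lfng, 4 for Maml2, 4 for Heyl and 3 for Rfng. Lfng was called in both the tracheal and the bronchiolar comparison, which share the Ad-Cre AT2 organoid culture.

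Hey1 was lower in the transplant tumoroids than in the BASC organoids, but not lower than in the AT2 organoids. It read 35.7 CPM in mixed, 23.6 CPM in bronchiolar and 3.73 CPM in alveolar BASC organoids with Ad-Cre and 1.31 CPM in AT2 organoids, while the 7 transplant tumoroids read 0.567 to 1.76 CPM. The tumoroid range took in both AT2 organoid cultures (1.01 and 1.31 CPM) and lay below every BASC organoid culture. Across 7 tumoroids and 4 distal Ad-Cre organoid cultures Hey1 was 12.6-fold lower in tumoroids (log2 fold change -3.66, SE 0.74, adjusted p = 0.00760), and it passed in all 15 alternative settings. It was the only member called, where 19.3% of 16139 genes were called and 8.57% were lower. All tumoroids were sequenced on another platform than the organoids, so transplantation and platform cannot be told apart. The organoids and tumoroids also differed in cell make-up. Basal markers summed to 1018 to 2646 CPM in the mixed and bronchiolar BASC organoids. They summed to 1.17 to 24.8 CPM in the AT2 and mixed BASC tumoroids and to 1734 CPM in the bronchiolar one. The part of these markers in the Hey1 difference was not tested.

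The step from organoid to tumoroid was set out within the bronchiolar BASC cultures, with 1 library each and no test. Hey1 read 23.6 CPM (1479 counts) in the organoid and 1.65 CPM in the tumoroid, which was 13.9-fold lower. Over the same step Dll1 was 2.73-fold, Jag2 2.49-fold and Nrarp 2.29-fold higher, and Hes1 was 1.80-fold higher. Among 14034 genes 7.50% were more than 2-fold higher and 12.1% more than 2-fold lower. The difference between the bronchiolar-to-alveolar gap of the tumoroids and that of the organoids was -2.67 for Hey1 on the log2 scale (SE 1.27, adjusted p = 1.00), and that test called 0 members and 0% of genes in edgeR (628 with an unadjusted p below 0.05, and 53 called by DESeq2).

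No other member passed between organoids and tumoroids. Of 39 other pathway genes tested, 2 were higher and 3 lower in tumoroids, no larger a share than among all genes (10.8% higher and 8.57% lower). Mib1, for the ubiquitin ligase that drives ligand uptake, read 68.3 to 89.1 CPM in tumoroids and 110 to 188 CPM in distal Ad-Cre organoids (log2 fold change -0.99, SE 0.16, adjusted p = 0.00254). Itch (-0.65, adjusted p = 0.00735), for another ubiquitin ligase, and Adam10 (-0.63, adjusted p = 0.0152), for the protease that makes the first ligand-induced cut in Notch, were also lower. Dtx4, for a Deltex protein, was higher (1.10, adjusted p = 0.0354), but that call was lost in 10 of 15 alternative settings.

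Levels of different genes were compared per transcript length, in TPM, the length-scaled share of transcripts that RSEM gives. Hes1 had the highest median TPM of the 10 in trachea (104), BASC (102) and AT2 organoids (92.5), in the AT2 and mixed BASC tumoroids (105) and in the bronchiolar tumoroid (189.8). In trachea it was followed by Jag2 (48.9) and Jag1, whose ranges of 45.9 to 63.4 and 36.8 to 43.6 did not overlap, and by Hey1 at 29.4 to 38.3, which overlapped Jag1. In AT2 organoids Notch2 came next to Hes1 with 21.0 and 23.0 TPM, ahead of Jag2 at 8.44 and 12.7 TPM. Dll4 was last or next to last in all 5 groups.

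**Figure D4:**
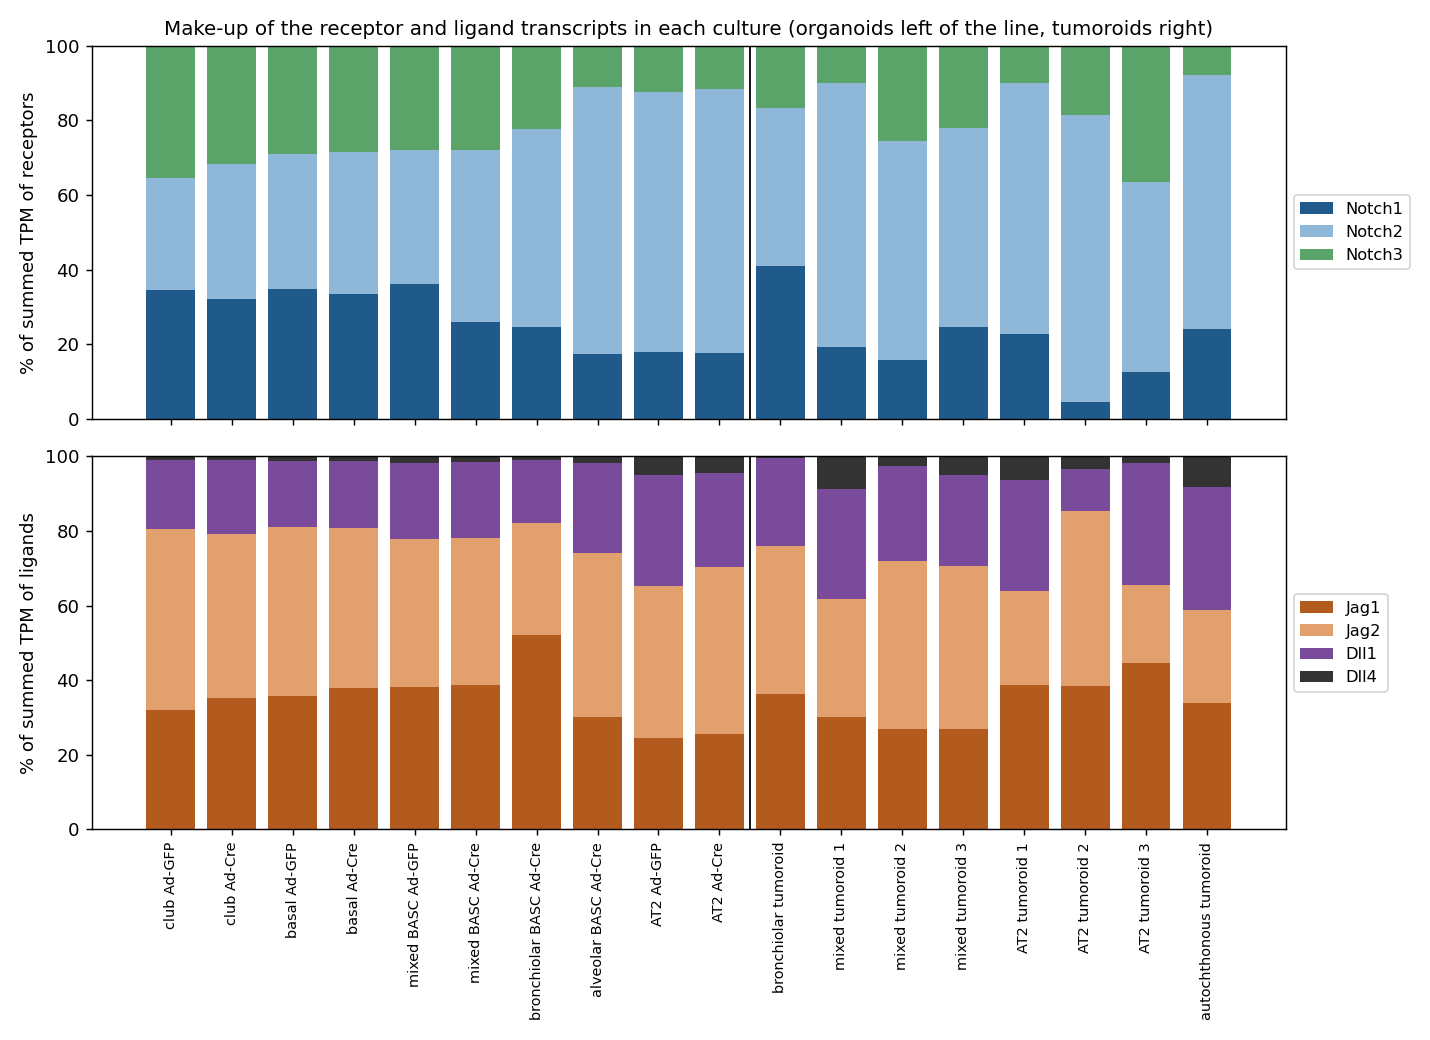
Share of each receptor (top) and ligand (bottom) in the summed TPM of its kind, in percent, in each of the 18 cultures; each bar is 1 library and bars start at 0. Notch2 takes 29.9 to 38.2% of receptor TPM in trachea and 69.8 to 71.7% in AT2 and alveolar BASC organoids.

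The make-up of the receptors shifted between origins. Notch2 took 29.9 to 38.2% of the summed receptor TPM in the 4 tracheal cultures, 35.8 to 53.3% in the mixed and bronchiolar BASC cultures, 71.7% in the alveolar BASC culture and 69.8 and 70.9% in AT2. In the tumoroids it took 42.3% in the bronchiolar one and 51.1 to 77.0% in the AT2 and mixed BASC ones. Jag1 and Jag2 together took more of the ligand TPM than Dll1 and Dll4 in every culture, and Jag1 alone took 32.1 to 37.8% in trachea, 24.6 and 25.5% in AT2 and 52.2% in the bronchiolar BASC organoid. The summed ligand TPM was 104 to 131 in trachea, 94.1 to 104 in mixed and bronchiolar BASC organoids, 26.1 in the alveolar one and 20.7 to 28.4 in AT2. It was 167 in the bronchiolar tumoroid and 14.6 to 60.5 in the AT2 and mixed BASC tumoroids. These shares and sums were not tested.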

How the data were processed

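RNA of 18 mouse cultures was analyzed, 10 organoid cultures and 8 tumoroids. The authors trimmed reads with Trimmomatic 0.39 and, per the labels, used STAR 2.6.1d and RSEM 1.3.2 with GRCm38. The deposited tables give, per gene, an expected count, not normalized between samples, and the deposited TPM. Of 46603 genes, 46091 were matched to GENCODE vM21 and 512 were not. Expected counts were rounded and tested with edgeR 4.0.16 in R 4.3.3 (filterByExpr, TMM, quasi-likelihood F test, Benjamini-Hochberg adjustment over all genes, threshold 0.05). Each SE is the absolute log2 fold change over the square root of F. CPM values use TMM factors of all 18 samples. The pairs were fitted with a population block, since each sort had been divided into aliquots for the viruses. DESeq2 1.42.0, limma 3.58.1 on log2(TPM + 1), other filters and left-out samples served as alternatives. The code was tested on simulated data. AT2 tumoroids carry an NGFR-negative sorting label and were placed by tissue origin. The members, pathway list and marker lists were chosen with earlier results of these data known. All 10 members are named, and of the other pathway genes up to the 3 of largest change per direction, except a gene that is not reported here. P-values measure the spread between these samples only.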

Additional observations from a re-analysis of the deposited data

Results flagged for a closer look

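A library far from the rest of its group was looked for in 30 combinations of a member and a group, on log2 CPM, with Dixon's ratio, which chance passes in about 1 group of 20. It was passed 5 times. Notch1 read 116 CPM in the club Ad-GFP culture, while the other tracheal cultures lay at 80.8 to 81.6 CPM. Notch1 read 4.77 CPM in AT2 tumoroid 2, and the other AT2 and mixed BASC tumoroids lay at 24.0 to 41.8 CPM. Jag1 read 100.1 CPM in the club Ad-Cre culture, and the other tracheal cultures lay at 105 to 106 CPM. Jag2 read 6.84 CPM in AT2 tumoroid 3, against 35.3 to 63.5 CPM in the other AT2 and mixed BASC tumoroids. Nrarp read 5.35 CPM in the alveolar BASC culture, and 19.9 to 22.3 CPM in the other BASC organoids.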

How the results depend on the processing

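Counts of called genes changed with the libraries and tools used, and the cause was not tested. With 1 library left out in turn, trachea against AT2 called 0 to 6767 genes and 0 to 7 members, trachea against BASC 0 to 3541 genes and 0 to 1 member, and BASC against AT2 0 to 9265 genes and 0 to 7 members. Club against basal called 44 to 460 genes and 0 to 3 members, bronchiolar against alveolar tumoroids 0 to 378 genes and 0 to 2 members, and the fit of both stages 72 to 1831 genes and 0 to 4 members. AT2 against mixed BASC tumoroids and the Ad-Cre pairs stayed at 0 genes, and the transplant comparison gave 1932 to 3658 genes with Hey1 as the called member each time.

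DESeq2's Wald test called 1303 genes for trachea against BASC, 4429 genes and 5 members (Jag1, Jag2, Dll1, Hey1 and Nrarp) for BASC against AT2, 218 genes for club against basal, 5 for the Ad-Cre pairs, 137 for the distal minus trachea difference, 697 genes and 1 member for bronchiolar against alveolar tumoroids, 12 for AT2 against mixed BASC tumoroids, 2614 genes and 5 members (the same 5) for both stages, and 53 for the difference between stages. With limma on log2(TPM + 1), trachea against BASC called 27 genes, BASC against AT2 337, club against basal 6 and bronchiolar against alveolar tumoroids 271. Without a filter on low counts, club against basal called 650 genes and 2 members and the distal minus trachea difference 13. That setting moved the median log2 fold change of all genes by -0.21 in bronchiolar against alveolar tumoroids and by -0.10 in both stages, while limma moved it by -0.16 in AT2 against mixed BASC tumoroids. With the autochthonous tumoroid added, bronchiolar against alveolar tumoroids called 71 genes. With only the compared cultures in the fit, an alternative chosen after seeing the data, trachea against BASC and BASC against AT2 called 0. Trachea against AT2 then called 12113 of 18705 genes and 8 members.

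Hes1 and Dll4, neither of them called, changed sign in trachea against AT2. Hes1 was at -0.00636 with DESeq2 size factors, at -0.00592 with DESeq2 and between -0.0606 and 0.167 with a library left out, and Dll4 between -0.00337 and 0.156. The pairs were matched because each sort was divided into 2 aliquots, and without the replicate block the Ad-Cre comparison still called 0 genes. Leaving out a pair was not run for the distal minus trachea difference, since it leaves 1 pair in a region. Counts in the tumoroids were as low as 12 to 73 for Hey1 and 9 to 207 for Dll4, which limits the precision of their values.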
